A study of Mus musculus with 6 samples.

Results

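The caspase and Fas pathway genes described here are Casp1, Casp2, Casp4, Casp6, Casp8, Casp9, Fas and Fasl, chosen by symbol, with every array probe set annotated to them. They held 12 of the 45101 probe sets, and 8 of the 18194 genes that had a probe set of their own. Casp9 had 3 probe sets, Casp6 and Fasl had 2 each, and the other 5 genes had 1 each. The measurements come from 6 oligonucleotide arrays of regulatory T cells (Treg cells, CD4 T cells that restrain immune responses) sorted from C57BL/6 mice. The groups were Foxo1 knockout mice that also carried Foxo1AAA, a constitutively active form of Foxo1 (Foxo1KO/Foxo1AAA, 1 array), mice with Foxo1AAA alone (Foxo1AAA, 1 array), Foxo1 knockout mice (Foxo1KO, 2 arrays) and wild-type mice (WT, 2 arrays). The design asked which genes depend on Foxo1, a forkhead transcription factor, and whether adding Foxo1AAA to the knockout brings their levels back. The sources used here give neither the Cre driver, the deleted part of Foxo1 or the site of Foxo1AAA, nor the ages of the mice, the sorting gates or any pooling. No label says that replicate arrays came from separate mice, so the p-values measure only the spread between these arrays. The exact number of mice behind each array is not known.

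Caspases are cysteine proteases that cut after aspartate. Inflammatory caspases, encoded by Casp1 and Casp4 in the mouse, are activated by inflammasomes or by intracellular lipopolysaccharide, process interleukin precursors and open membrane pores through gasdermin D. Apoptotic initiators (Casp8, Casp9, Casp2) are activated on platforms assembled by death receptors, by the mitochondrial apoptosome and by the PIDDosome, and executioners such as Casp6 act after them. Fas is a death receptor that recruits Fadd and Casp8, and Fasl is its ligand, which activated T cells and NK cells display. In T cells the Fas system is known for removing activated cells after a response.

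All values are log2 expression as deposited, and all differences are in log2 units. Differences are from limma with Benjamini-Hochberg adjustment over all 45101 probe sets, and a probe set was called at an adjusted p under 0.05. The 12 probe sets had means at the 43.0th to the 96.1th percentile of all probe sets, so none lay among the dimmest 25%. Levels of different probe sets are not compared, because probes differ in how they bind.

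Some properties of the arrays touch these results. The markers Cd3e, Cd4, Ctla4, Il2ra, Ikzf2 and Tnfrsf18 lay between 9.28 and 13.63 on the 6 arrays, whereas the only Foxp3 probe set was dim (5.10 to 5.58). The 3 brighter Foxo1 probe sets lay between 8.46 and 9.66 in Foxo1KO/Foxo1AAA, 9.39 and 10.71 in Foxo1AAA, 9.18 and 10.87 in Foxo1KO and 9.60 and 11.35 in WT, and 2 of them were called lower in Foxo1KO than in WT (differences of -0.49 and -0.54). Each of the 3 lay lower in Foxo1KO/Foxo1AAA than in Foxo1KO (differences of -0.58, -0.76 and -1.10) and than in WT (-1.07, -1.30 and -1.54). Whether these probe sets lie in the deleted part is not known here. Myeloid markers stood high on the Foxo1AAA arrays: their summed level, on the log2 scale, was 13.40 on the Foxo1KO/Foxo1AAA array, 13.09 on the Foxo1AAA array, 11.04 and 10.77 on the Foxo1KO arrays and 10.14 and 10.34 on the WT arrays. The Y-linked gene Eif2s3y measured 10.56 in Foxo1KO/Foxo1AAA, 10.59 in Foxo1AAA, 4.05 and 9.91 in Foxo1KO and 3.91 and 10.09 in WT. Only the second array of each pair carried this transcript, so the arrays of a pair were not repeats of the same RNA. Xist, made from the inactive X chromosome, measured 6.27 in Foxo1KO/Foxo1AAA, 6.04 in Foxo1AAA, 13.14 and 12.59 in Foxo1KO and 13.43 and 12.03 in WT. Xist and Eif2s3y stood high together on the second arrays of Foxo1KO and WT, so those arrays held RNA of both sexes. In bulk samples such as these, fewer cells of a type and less RNA per cell cannot be told apart.

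The comparison of Foxo1KO with WT asked which of these genes depend on Foxo1. Casp1, Casp4 and Fasl rose, Fasl on both of its probe sets, and the other 5 genes were not called. Of the 12 probe sets 4 were called higher and 0 lower (at an unadjusted p under 0.05, 5 were higher and 1 lower), against a background of 5.37% of all probe sets called higher and 8.34% called lower. The array values of Foxo1KO and WT did not overlap for 9 of the 12, but neither did they for 52.8% of all probe sets. The 12 had a median difference of 0.09, against 0.01 for all probe sets. The calls of Casp1, Casp4 and Fasl on 1449235_at held under all 15 alternatives run, and that of Fasl on 1418803_a_at under the 13 that kept it as a probe set of its own.

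**Figure D1:**
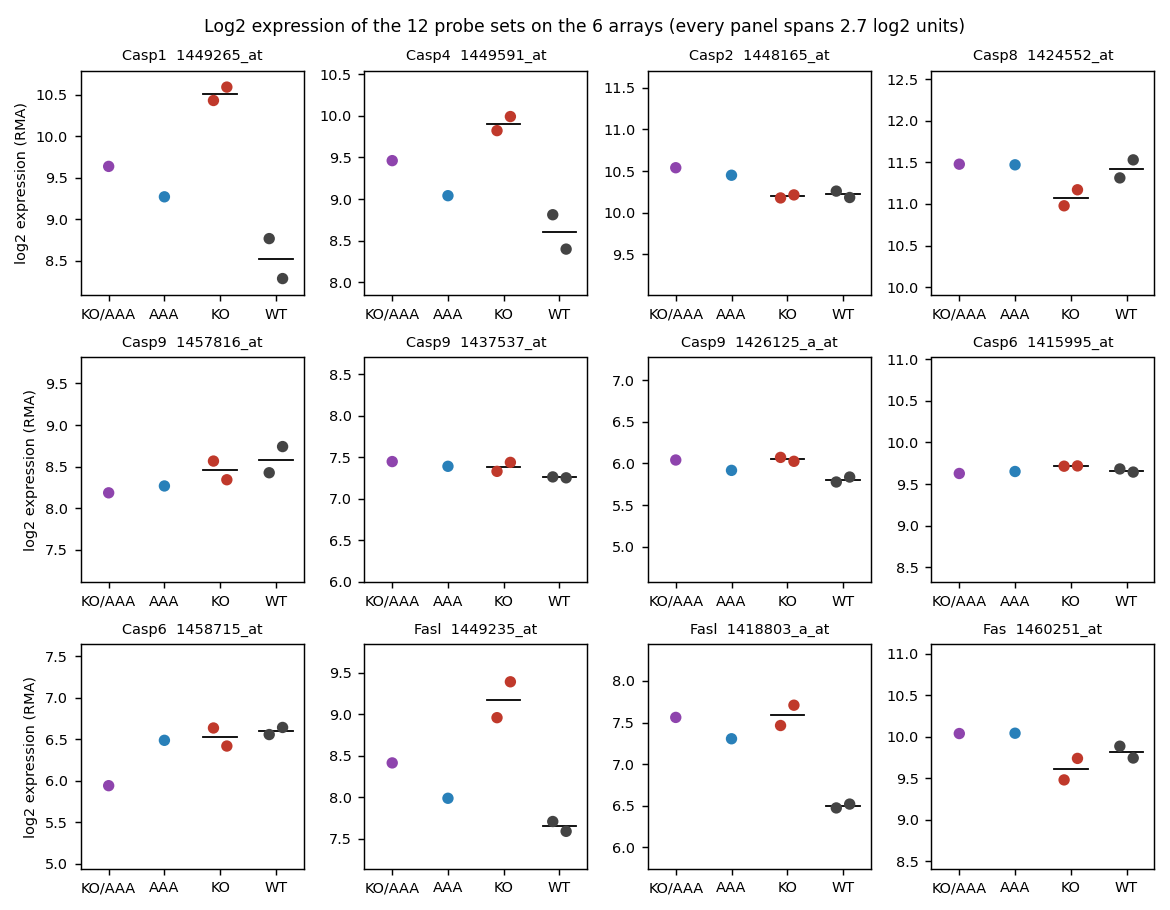
Log2 expression of each of the 12 probe sets (panels) on the 6 arrays. Points are arrays of Foxo1KO/Foxo1AAA (KO/AAA), Foxo1AAA (AAA), Foxo1KO (KO) and WT, lines are the means of the 2 arrays of Foxo1KO and WT, and every panel spans the same range. The Foxo1KO points of Casp1, Casp4 and Fasl stand above both WT points, and those of Casp2 and of the brighter Casp6 probe set lie close to them.

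Casp1, the inflammasome protease that matures interleukin-1 beta and interleukin-18, measured 10.43 and 10.59 on the Foxo1KO arrays, against 8.77 and 8.29 on the WT arrays. Both Foxo1KO values lay far above both WT values, and the WT arrays differed from each other more than the Foxo1KO arrays did. Foxo1KO averaged 10.51 ± 0.11 and WT 8.53 ± 0.34 (SD, n = 2 each), a difference of 1.98 (SE 0.16, 3.95-fold, adjusted p = 9.3e-05). Casp4, which in the mouse encodes the lipopolysaccharide-sensing protease known as caspase-11, measured 9.82 and 9.99 in Foxo1KO, against 8.81 and 8.40 in WT. The Foxo1KO values again stood clear of the WT values. The difference was 1.30 (SE 0.14, 2.47-fold, adjusted p = 0.00053). Between arrays of the same replicate number, and thus of like Eif2s3y level, Casp1 was higher in Foxo1KO by 1.66 and 2.30 and Casp4 by 1.01 and 1.59.

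Fasl, the death ligand, measured 8.96 and 9.39 in Foxo1KO on probe set 1449235_at, against 7.71 and 7.59 in WT. On probe set 1418803_a_at, it measured 7.46 and 7.71 in Foxo1KO, against 6.47 and 6.52 in WT. Neither probe set had overlapping groups. The differences were 1.52 (SE 0.14, 2.88-fold, adjusted p = 0.00023) and 1.09 (SE 0.11, 2.13-fold, adjusted p = 0.00037). Within replicate numbers 1449235_at was higher in Foxo1KO by 1.25 and 1.80, and 1418803_a_at by 0.99 and 1.19. Its receptor Fas did not follow: it measured 9.48 and 9.74 in Foxo1KO, against 9.89 and 9.74 in WT, a difference of -0.21 (SE 0.12, 95% interval -0.48 to 0.07, adjusted p = 0.35). The second Foxo1KO array equalled the lower WT array to the second decimal, so only 1 Foxo1KO array lay clearly below WT.

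Casp8, the initiator that Fas and Fadd activate, measured 10.98 and 11.17 in Foxo1KO, against 11.31 and 11.53 in WT. All Foxo1KO values lay below the WT values, but the difference of -0.35 (SE 0.12, 95% interval -0.62 to -0.08, adjusted p = 0.099) was not called. It passed when the variance prior followed intensity (adjusted p = 0.039), and over all alternatives the adjusted p ran from 0.039 to 0.42. Casp9, the initiator of the apoptosome, gave 3 probe sets of unlike sign, none called: -0.13 on 1457816_at, 0.13 on 1437537_at and 0.24 on 1426125_a_at (adjusted p = 0.64, 0.51 and 0.16). The dimmest of these, 1426125_a_at, measured 6.07 and 6.03 in Foxo1KO, against 5.78 and 5.84 in WT, and its 95% interval ran from 0.02 to 0.47.

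Casp2, the PIDDosome initiator, measured 10.18 and 10.21 in Foxo1KO, against 10.26 and 10.18 in WT. The groups overlapped, and the difference of -0.03 had a 95% interval of -0.25 to 0.20 (adjusted p = 0.92). Casp6, an executioner, measured 9.71 and 9.72 in Foxo1KO, against 9.68 and 9.64 in WT, on the brighter probe set 1415995_at. That difference was 0.05 (95% interval -0.17 to 0.27, adjusted p = 0.81), and on the dimmer 1458715_at it was -0.07 (95% interval -0.33 to 0.18, adjusted p = 0.77).

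**Figure D2:**
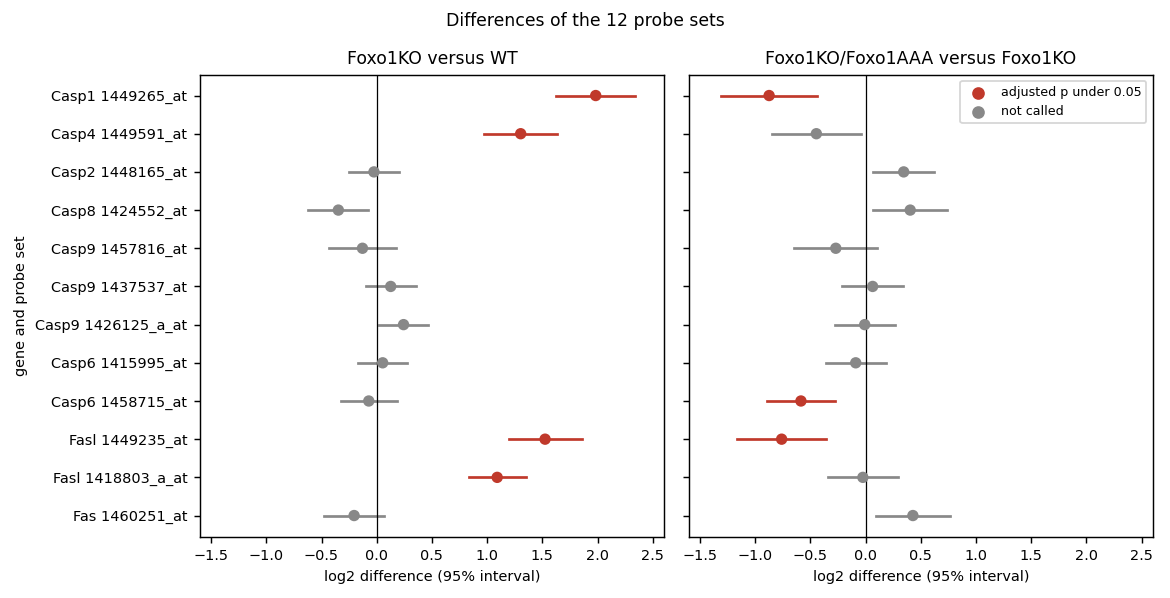
Log2 difference (point) and 95% interval (bar) of each of the 12 probe sets for Foxo1KO versus WT and for Foxo1KO/Foxo1AAA versus Foxo1KO, called probe sets in red and the others in grey. Casp1, Casp4 and both Fasl probe sets lie right of 0 in the first panel, and Casp1, 1 Casp6 and 1 Fasl probe set lie left of 0 as called in the second.

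Markers of other cells were read beside these rises. Of 8 myeloid markers, 3 were called higher in Foxo1KO: Cd68 by 0.55, Cebpb by 1.32 and Lyz2 by 0.92 (adjusted p = 0.029, 0.00024 and 0.015). The differences of 7 of the 8 were positive, with a median of 0.33. Lyz2 measured 8.52 and 7.82 in Foxo1KO against 7.20 and 7.30 in WT. Csf1r measured 9.12 and 8.52 in Foxo1KO against 8.36 and 8.93 in WT, and Fcgr3 measured 6.41 and 5.99 against 6.05 and 6.35. Csf1r, Fcgr3, Cd14 and Adgre1 were not called (adjusted p = 0.72, 0.999, 0.82 and 0.35), nor was the dim Itgam (adjusted p = 0.052). Of 4 markers of CD8 T and NK cells, Klrd1 was called higher, measuring 6.80 and 6.43 in Foxo1KO against 5.16 and 5.60 in WT, and Cd8a, Cd8b1 and Ncr1 were not. Of 4 B cell markers, Cd22 was called higher, and of 2 erythroid markers 0 were called (0 at an unadjusted p under 0.05). The part of other cells in the rises of Casp1, Casp4 and Fasl was not tested.

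The sequences just upstream of the 3 genes that rose are shown because Foxo proteins bind the letters GTAAACA or its core GTAAAC. Each holds the 250 bases before a RefSeq start site, written 5′ to 3′ on the strand of the gene (GRCm38.p6), in lower case with a match to the core, extended where the longer motif is present, in capitals. The window of Casp1 is chr9:5298267-5298516 on the plus strand, that of Casp4 is chr9:5308599-5308848 on the plus strand, and that of Fasl is chr1:161788496-161788745 on the minus strand.
Casp1: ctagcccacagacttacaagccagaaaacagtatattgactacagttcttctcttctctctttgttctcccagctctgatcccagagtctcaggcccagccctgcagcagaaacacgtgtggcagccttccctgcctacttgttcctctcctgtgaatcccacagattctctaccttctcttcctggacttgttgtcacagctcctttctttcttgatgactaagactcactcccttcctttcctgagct
Casp4: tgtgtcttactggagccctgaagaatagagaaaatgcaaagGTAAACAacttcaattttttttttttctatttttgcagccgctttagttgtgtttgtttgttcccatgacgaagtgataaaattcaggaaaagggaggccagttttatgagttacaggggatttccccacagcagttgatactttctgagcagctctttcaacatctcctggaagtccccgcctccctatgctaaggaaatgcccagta
Fasl: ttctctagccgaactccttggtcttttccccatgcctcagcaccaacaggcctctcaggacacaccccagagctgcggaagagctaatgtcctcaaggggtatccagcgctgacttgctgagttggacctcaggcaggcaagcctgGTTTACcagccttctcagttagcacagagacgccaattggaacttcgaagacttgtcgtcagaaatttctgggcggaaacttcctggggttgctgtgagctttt
The window of Casp4 held 1 GTAAACA, starting 209 bases before the start site. The window of Fasl held 1 GTAAAC on the opposite strand, read as GTTTAC, which begins 104 bases before the start site, and no GTAAACA. Neither motif was found in the windows of Casp1, Casp2, Casp6, Casp8, Casp9 or Fas on either strand. Over the 32851 start sites of the RefSeq table, GTAAACA was found in 3.17% of windows of this length and GTAAAC, which lies within it, in 6.92%. A match describes these letters only.

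Whether the members return when active Foxo1 is present was read from Foxo1KO/Foxo1AAA against Foxo1KO, 1 array against 2. Casp1 and Fasl on 1449235_at were lower with Foxo1AAA, as was Casp6 on 1458715_at. Of the 12 probe sets 3 were called lower and 0 higher (4 and 3 at an unadjusted p under 0.05), against a background of 16.2% called lower and 14.4% called higher. The 12 had a median difference of -0.06, equal to that of all probe sets at this precision. The lone arrays had no replicate of their own and were assumed to vary like the pairs.

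Casp1 measured 9.64 on the Foxo1KO/Foxo1AAA array, against 10.43 and 10.59 in Foxo1KO, and 44.1% of the knockout difference was taken back. The difference of -0.87 (SE 0.19, adjusted p = 0.010) was no longer called when Foxo1KO replicate 2 was left out (adjusted p = 0.064, the highest among alternatives that began at 0.0016). Casp4 measured 9.46, against 9.82 and 9.99, a difference of -0.45 (SE 0.18, adjusted p = 0.089) that took back 34.2% and was not called. It was called without either WT array. WT is not part of this contrast, so the difference stayed at -0.45 and the pooled variance estimate changed. The 2 probe sets of Fasl parted here. On 1449235_at it measured 8.41 in Foxo1KO/Foxo1AAA, against 8.96 and 9.39 in Foxo1KO, a difference of -0.76 (SE 0.18, adjusted p = 0.014) that took back 49.9%. On 1418803_a_at it measured 7.56, between the Foxo1KO values of 7.46 and 7.71, a difference of -0.02 (SE 0.14, 95% interval -0.34 to 0.29, adjusted p = 0.91) that took back 2.26%. When both probe sets of Fasl were averaged, the difference was -0.39 and was not called (adjusted p = 0.057, range over alternatives of 1449235_at 0.0091 to 0.057). Whether the 2 probe sets differ in this contrast was not tested. The shares taken back rest on a lone array and have no interval. They compare 2 differences that use the same Foxo1KO arrays, so a high Foxo1KO value enlarges both.

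Fas, Casp8 and Casp2 lay higher with Foxo1AAA without being called. Fas measured 10.04 in Foxo1KO/Foxo1AAA, against 9.48 and 9.74 in Foxo1KO (difference 0.43, SE 0.15, adjusted p = 0.056). Casp8 measured 11.48, against 10.98 and 11.17 (0.40, SE 0.15, adjusted p = 0.066), and Casp2 measured 10.54, against 10.18 and 10.21 (0.35, SE 0.12, adjusted p = 0.059). In all 3 the array with Foxo1AAA stood above both knockout arrays. Of 12 alternatives, 5 called Fas, 4 called Casp8 and 5 called Casp2, with adjusted p ranging from 0.025 to 0.22 over the 3 genes. Casp6 on 1458715_at measured 5.94, against 6.64 and 6.42 (-0.59, SE 0.14, adjusted p = 0.014), a call lost when Foxo1KO replicate 1 was left out (adjusted p = 0.061, the highest among alternatives that began at 0.013), while 1415995_at differed by -0.09 (adjusted p = 0.60). The mean of both Casp6 probe sets was called lower by -0.34 (adjusted p = 0.030). The probe sets of Casp9 differed by -0.27, 0.06 and -0.01 and none was called.

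What remained different from WT was read from Foxo1KO/Foxo1AAA against WT, again 1 array against 2. Casp1 was still higher by 1.11 (SE 0.19, adjusted p = 0.0050), Casp4 by 0.86 (SE 0.18, adjusted p = 0.011) and Fasl by 0.76 and 1.07 (SE 0.18 and 0.14, adjusted p = 0.017 and 0.0014). Of the 12 probe sets 4 were called higher and 1 lower, Casp6 on 1458715_at by -0.66 (adjusted p = 0.011), against a background of 11.7% and 12.7%. Casp8 (0.06, 95% interval -0.28 to 0.39) and Fas (0.22, 95% interval -0.11 to 0.56) were not called. The WT arrays are shared with the comparison of Foxo1KO with WT, so these differences are not independent of it.

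Foxo1AAA against WT, where endogenous Foxo1 is present, gave 2 calls of 12, both higher (at an unadjusted p under 0.05, 3 were higher and 0 lower), against a background of 10.4% of all probe sets called higher and 13.2% called lower. Casp1 measured 9.27 in Foxo1AAA, against 8.77 and 8.29 in WT (0.74, SE 0.19, adjusted p = 0.025). That call ended without WT replicate 2 (difference 0.50) or without either Foxo1KO array. Foxo1KO is not part of this contrast, so there the difference stayed at 0.74 and the pooled variance estimate changed. Fasl on 1418803_a_at measured 7.30, against 6.47 and 6.52 (0.81, SE 0.14, adjusted p = 0.0058). On 1449235_at it measured 7.99, against 7.71 and 7.59 (0.34, SE 0.18, adjusted p = 0.20), and the mean of both Fasl probe sets was called higher by 0.57 (adjusted p = 0.022). Casp4 measured 9.04, against 8.81 and 8.40 (0.44, SE 0.18, adjusted p = 0.11), and was called when WT replicate 1 was left out (0.64, adjusted p = 0.027). For Casp1, Casp4 and Fasl on 1449235_at the groups thus ran from Foxo1KO at the top through Foxo1KO/Foxo1AAA and Foxo1AAA to WT. The neighbours Foxo1KO/Foxo1AAA and Foxo1AAA did not differ beyond the spread in any of the 3 (0.37, 0.42 and 0.43, adjusted p = 0.55, 0.43 and 0.42). In Foxo1KO/Foxo1AAA against Foxo1AAA 0 of the 12 probe sets were called, as were 0.0554% of all probe sets, and 1 of the 12 had an unadjusted p under 0.05 (Casp6 on 1458715_at).

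The knockout difference was also compared with and without Foxo1AAA. For Casp1 it was 0.37 with Foxo1AAA and 1.98 without, and the interaction of -1.62 (SE 0.27, adjusted p = 0.020) was the only 1 of the 12 called, against a background of 2.98%. That call ended without either Foxo1KO array (adjusted p = 0.088 and 0.11, range over alternatives 0.0019 to 0.11). The interactions of Fasl were -1.10 on 1449235_at and -0.83 on 1418803_a_at (adjusted p = 0.058 and 0.065) and that of Casp4 was -0.88 (adjusted p = 0.11). That of 1449235_at was called under 4 of 12 alternatives, and that of Casp4 when WT replicate 1 was left out (adjusted p = 0.027).

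Markers of other cells were also read beside the comparisons of the Foxo1AAA arrays with Foxo1KO and WT. All 8 myeloid markers were called higher in Foxo1KO/Foxo1AAA and in Foxo1AAA than in WT, and 7 of 8 were called higher in Foxo1KO/Foxo1AAA than in Foxo1KO. Csf1r, the macrophage growth factor receptor, measured 12.38 in Foxo1KO/Foxo1AAA and 11.99 in Foxo1AAA, against 9.12 and 8.52 in Foxo1KO and 8.36 and 8.93 in WT. Casp1 and Casp4 are known to be expressed by macrophages as well. All 4 B cell markers were called higher in Foxo1KO/Foxo1AAA and in Foxo1AAA than in WT, and 2 of 4 were called higher in Foxo1KO/Foxo1AAA than in Foxo1KO. Of the 4 markers of CD8 T and NK cells, Klrd1 and Cd8b1 were called higher in all 3 of these comparisons, and Cd8a was called lower in Foxo1KO/Foxo1AAA than in Foxo1KO and in Foxo1AAA than in WT. Klrd1 measured 8.56 in Foxo1KO/Foxo1AAA and 8.08 in Foxo1AAA, against 6.80 and 6.43 in Foxo1KO and 5.16 and 5.60 in WT. The part of myeloid, B, CD8 T or NK cells in the levels of Casp1, Casp4 and Fasl on the 2 arrays was not tested. Those arrays also differ from the other 4 in Xist, so sex-linked differences and Foxo1AAA cannot be told apart.

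**Figure D3:**
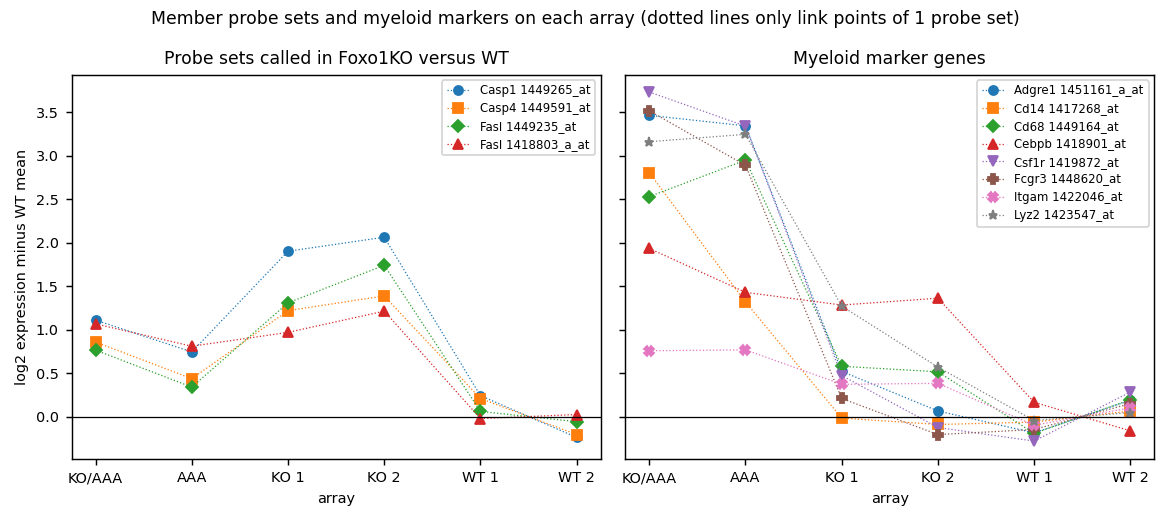
Log2 expression minus the WT mean on each of the 6 arrays, for the 4 probe sets called in Foxo1KO versus WT and for the 8 myeloid markers. The member probe sets are highest on the Foxo1KO arrays, except that the Foxo1KO/Foxo1AAA value of Fasl 1418803_a_at lies between the 2 Foxo1KO values, whereas all 8 myeloid markers are highest on the 2 arrays with Foxo1AAA.

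Other genes of the pathways were read from 4 lists in Foxo1KO against WT, where 7.34% of all genes were called higher and 6.77% lower and the median difference of all genes was 0.03. Of 15 genes of death receptor signalling 1 rose and 1 fell, with a median of 0.18. Mlkl, the executor of necroptosis, measured 6.73 and 6.71 in Foxo1KO, against 5.34 and 5.57 in WT (1.27, SE 0.11, adjusted p = 0.00015). Tnfrsf25, a death receptor also called DR3 that costimulates T cells, measured 9.06 and 9.02, against 10.32 and 10.32 (-1.28, SE 0.10, adjusted p = 7.8e-05). The groups did not overlap for either gene. The adaptor Fadd differed by 0.18 and the Casp8 inhibitor Cflar by -0.22, and neither was called (adjusted p = 0.36 and 0.37).

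Of 14 genes of the apoptosome and execution list 1 rose and 2 fell, with a median of -0.06. Apaf1, the scaffold of the apoptosome, measured 10.34 and 10.51 in Foxo1KO, against 9.59 and 9.45 in WT (0.90, SE 0.11, adjusted p = 0.00087). The nuclease Endog fell by 0.52 (adjusted p = 0.020) and Diablo, which frees caspases from their inhibitors, fell by 0.39 (adjusted p = 0.039). The Endog call was lost when either WT array or the second Foxo1KO array was left out (adjusted p = 0.053, 0.077 and 0.12, within alternatives from 0.0037 to 0.12), and the Diablo call ended without any 1 of the 4 arrays (adjusted p from 0.082 to 0.19, range over alternatives 0.019 to 0.19).

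Of 13 inflammasome genes 0 rose and 2 fell by limma (1 and 2 at an unadjusted p under 0.05), with a median of 0.09. Card6, which carries a caspase recruitment domain, measured 9.02 and 8.91 in Foxo1KO, against 10.85 and 10.97 in WT (-1.95, SE 0.10, adjusted p = 1.7e-05). P2rx7, the ATP-gated channel that can trigger inflammasomes, fell by 0.38 (adjusted p = 0.036), a call that ended without any 1 of the 4 arrays (adjusted p from 0.096 to 0.18, range over alternatives 0.012 to 0.18) and with the mean of its probe sets (adjusted p = 0.059). Pycard, the adaptor that joins sensors to caspase-1, differed by 0.20, and Gsdmd, the pore-forming substrate, by 0.21 (adjusted p = 0.26 and 0.34). Pidd1 and Cradd of the PIDDosome, which activates Casp2, were not called (0.05 and -0.34, adjusted p = 0.85 and 0.081). Ripk1, Nlrp1a, Nlrp1b and Nlrc4 of these lists were not analysed here.

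**Figure D4:**
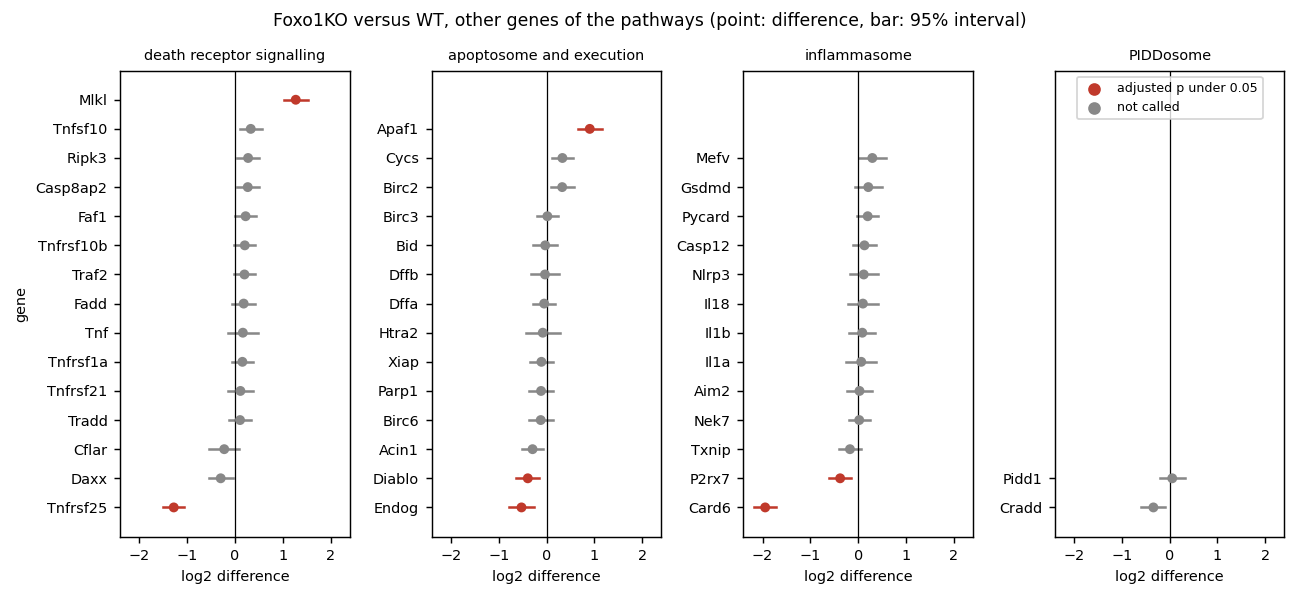
Log2 difference (point) and 95% interval (bar) in Foxo1KO versus WT for the genes of 4 lists, 1 probe set a gene, called genes in red and the others in grey. Most genes lie within 0.4 of 0, and Mlkl, Apaf1, Tnfrsf25 and Card6 lie farthest from it.

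In Foxo1KO/Foxo1AAA against Foxo1KO, where 13.9% of all genes were called higher and 17.5% lower, 1 of the 15 death receptor genes was higher and 3 lower, 3 of the 14 apoptosome and execution genes were higher and 2 lower, and 3 of the 13 inflammasome genes were higher and 0 lower (3 and 3 at an unadjusted p under 0.05). Of the 2 PIDDosome genes, Cradd was called higher by 0.52, a call lost when Foxo1KO replicate 1 was left out, and Pidd1 was not called (0.31). Card6 measured 10.51 in Foxo1KO/Foxo1AAA, against 9.02 and 8.91 in Foxo1KO (1.55, SE 0.13, adjusted p = 0.00011). Apaf1 measured 9.90, against 10.34 and 10.51 (-0.52, adjusted p = 0.021), and its call was lost when Foxo1KO replicate 2 was left out (adjusted p = 0.084, the highest among alternatives that began at 0.012). The cytokines Il18 and Il1b, substrates of caspase-1 singled out after their values were seen, were higher by 2.65 and 1.39 (adjusted p = 2.4e-05 and 0.00040). Il18 measured 10.41 in Foxo1KO/Foxo1AAA and 10.22 in Foxo1AAA, against 7.94 and 7.58 in Foxo1KO and 7.59 and 7.73 in WT, so it was high on the same 2 arrays as the myeloid markers.

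The genes whose profile over the 6 arrays lay nearest to a member were found by the root mean square distance of centred log2 values among 18193 other genes. For Casp1 they were Ehd1, Ell2, Rrm2 and Myl4, at distances of 0.08 to 0.11 log2 units. Ehd1, the nearest, measured 9.77 in Foxo1KO/Foxo1AAA, 9.34 in Foxo1AAA, 10.30 and 10.62 in Foxo1KO and 8.76 and 8.35 in WT. For Casp4 they were Ptprj, Bcl3, Litaf and Cst7 (0.07 to 0.09), and for Fasl on 1449235_at they were Arsb, Gpr171, Irf8 and Cmtm7 (0.10 to 0.12). With 6 arrays and 4 groups, a near profile mainly says that the group levels were alike.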

How the data were processed

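The deposited values are log2 expression for 45101 probe sets on 6 arrays, per the submitters' processing notes made with RMA (the notes also name limma 3.12.1 and R 2.15). RMA corrects background, normalizes arrays together and summarizes probes, so a shift of most transcripts would be hidden and differences of dim probe sets are understated. Probe sets were named from the platform annotation, with symbols updated through Entrez identifiers: 34958 had 1 gene, 932 several and 9211 were not listed. Where 1 value a gene was needed, the probe set with the highest mean stood for it. limma 3.58.1 in R 4.3.3 was fitted to every probe set with 1 coefficient a group and no filter, leaving 2 residual degrees of freedom, with a variance prior of SD 0.11 on 6.54 degrees of freedom. Tests were two-sided. The number of arrays limits the precision, and for 2 arrays against 2 the smallest exact permutation p is 0.333. The code was tested on simulated data. The members and pathway lists were chosen with earlier results of these data known. Genes of the lists were named by value where called in Foxo1KO against WT, up to 3 a direction, and nearest profiles, 4 each, for members called there with a difference of at least 1. Alternatives changed the filter, probe sets a gene, the variance prior, scaling, dim values, the threshold, the replicate block and the arrays included.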

Additional observations from a re-analysis of the deposited data

Results flagged for a closer look

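The knockout difference of 5 genes was called different with and without Foxo1AAA, by the interaction in limma over all probe sets. They were 1 of the 8 members, 2 of 15 death receptor genes, 1 of 14 apoptosome and execution genes and 1 of 13 inflammasome genes, against 610 of 18194 genes in all. Casp1 had a knockout difference of 0.37 with Foxo1AAA and 1.98 without (interaction -1.62, adjusted p = 0.020). Apaf1 had 0.01 with and 0.90 without (-0.90, adjusted p = 0.047), and Mlkl had 0.37 with and 1.27 without (-0.90, adjusted p = 0.047). In the other direction, Card6 had -0.23 with and -1.95 without (1.71, adjusted p = 0.0038), and Tnfrsf25 had -0.30 with and -1.28 without (0.98, adjusted p = 0.022). Card6 kept its call under all 12 alternatives run for it, with adjusted p ranging from 0.00059 to 0.041. The calls of Casp1, Apaf1, Mlkl and Tnfrsf25 ended without either Foxo1KO array (adjusted p from 0.081 to 0.14), and all 4 missed the stricter threshold of 0.01. The call of Apaf1 also ended without WT replicate 2 (adjusted p = 0.083), with the mean of probe sets (0.067) and with dim values raised to the 25th percentile of each array (0.052), and that of Mlkl without WT replicate 1 (0.084) and with dim values raised (0.053). The arrays with Foxo1AAA are 1 a group and carried high myeloid markers, whose part in these differences was not tested.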

How the results depend on the processing

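Of the 12 probe sets, 4 were called in Foxo1KO against WT under the main settings and in the fits that left out 1 array (4 to 4), and the count was 3 of the 8 genes with 1 probe set a gene or the mean of probe sets and 5 with a trend prior. With the replicate block the count was 4, and with the numbers crossed, an alternative chosen after seeing the data, it was also 4. The deviations of same-numbered arrays correlated at r = -0.10 across probe sets (-0.15 without the sex-linked list), the arrays share only a number, and the block ended the calls of P2rx7 and Diablo (adjusted p = 0.087 and 0.074). In Foxo1KO/Foxo1AAA against Foxo1KO the main count of 3 became 5 with 1 probe set a gene or with the mean of probe sets (both also without the lowest 25%), 6 with a trend prior or equal array medians and 0 at an adjusted p under 0.01, and 2 to 4 with 1 array left out. In Foxo1AAA against WT the main count of 2 became 1 with 1 probe set a gene and 1 at the stricter threshold, and 1 to 3 with 1 array left out. In Foxo1KO/Foxo1AAA against WT the main count of 5 became 3 with 1 probe set a gene, where there are 8 genes in place of 12 probe sets, and 2 at the stricter threshold, and 5 to 6 with 1 array left out. For the interaction the main count of 1 became 2 with 1 probe set a gene, the mean of probe sets, a trend prior or equal array medians, 0 at the stricter threshold, and 0 to 2 with 1 array left out. In Foxo1KO/Foxo1AAA against Foxo1AAA it was 0 throughout. Counts with 1 probe set a gene or the mean of probe sets are of 8 genes, the others of 12 probe sets. The share of all features called moved too. In Foxo1AAA against WT it was 23.6% under the main settings, 27.5% with 1 probe set a gene and 7.98% at the stricter threshold. In Foxo1KO/Foxo1AAA against WT these were 24.3%, 30.7% and 9.77%, and for the interaction 2.98%, 5.94% and 0.539%. The interaction had 5.18% with the mean of probe sets, 3.84% with a trend prior and 3.39% with equal array medians. In Foxo1KO against WT the main share was 13.7% (6187 of 45101), then 7.47% at the stricter threshold (3368) and 14.9% with a trend prior. Over genes it was 21.8% with 1 probe set a gene and 22.4% with the mean. In Foxo1KO/Foxo1AAA against Foxo1KO the main share was 30.7%, and over genes 39.8% and 40.7%. It was 31.6% with a trend prior, 29.3% with equal array medians and 14.3% at the stricter threshold. No called difference changed sign, whereas 20 values that were called in neither setting did. Except where probe sets, threshold or arrays were reduced by construction, the cause of a change was not tested. Lone arrays could not be left out.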

Other observations

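Casp1 and Casp4 are neighbours on mouse chromosome 9 with 0 protein-coding genes between them, and Casp12 follows (order from RefSeq, GRCm38.p6), a comparison chosen after the values were seen. Casp12, another inflammatory caspase, measured 5.10 and 4.97 in Foxo1KO, against 4.87 and 4.94 in WT, and was not called (0.13, adjusted p = 0.50), with a mean among the dimmest 25% of probe sets. The nearest genes on the other side, Gria4, Msantd4 and Kbtbd3, differed by -0.03, 0.01 and -0.05, and those beyond Casp12, Pdgfd and Ddi1, by 0.03 and 0.06, none of them called (adjusted p from 0.82 to 0.98). Among these 8 neighbouring genes the calls were those of Casp1 and Casp4. The levels of Gria4, Msantd4, Kbtbd3, Pdgfd and Ddi1 are not given here. Any of them that is dim could not show a rise clearly.

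Tnfsf10, which encodes the death ligand TRAIL, measured 9.67 in Foxo1KO/Foxo1AAA and 9.46 in Foxo1AAA, against 10.47 and 10.58 in Foxo1KO and 10.24 and 10.15 in WT. Its arrays with Foxo1AAA lay below the other 4. It was called lower in Foxo1KO/Foxo1AAA than in Foxo1KO (-0.85, SE 0.13, adjusted p = 0.0020) and in Foxo1AAA than in WT (-0.73, SE 0.13, adjusted p = 0.0056), while in Foxo1KO against WT it was not called (0.33, adjusted p = 0.070). Bid, which links Casp8 to mitochondria, measured 9.60 in Foxo1KO/Foxo1AAA and 9.37 in Foxo1AAA, against 8.62 and 8.83 in Foxo1KO and 8.72 and 8.79 in WT. With the mean of probe sets, the Bid difference of Foxo1AAA from WT was 0.37 in place of 0.62 and was not called. That of Tnfsf10 in Foxo1KO/Foxo1AAA from WT was -0.22 in place of -0.52 and was not called either. The 2 calls of Tnfsf10 given above held under all 12 alternatives. Both genes were singled out after their values were seen, and the part of the myeloid cells or of the sex of the mice in their levels was not tested.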
